A study of Mus musculus with 3 samples.

Results

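The cells described here were visceral endoderm (VE) cells of bilayered embryo-like aggregates (BELAs) that held at least 1 molecule of Lhx1 mRNA but lay outside the group with high anterior visceral endoderm (AVE) genes. There were 215 such Lhx1-positive cells among 542 VE cells of BELAs (39.7%, 35.5 to 43.9%), among 1410 BELA cells kept after filtering and among 2692 kept cells of the whole series. They were selected on the values reported here. A barcode was kept with at least 4000 detected genes and at most 10% mitochondrial unique molecular identifiers (UMIs, each marking 1 captured mRNA molecule). It was assigned to the VE when the UMIs of Gata6, Sox17, Dab2 and Cubn together exceeded those of Pou5f1, Sox2, Nanog and Fgf4. The 78 VE cells in which Sfrp1, Lhx1, Otx2, Gsc, Fgf8 and Gpc4 summed to 500 CPM or more (UMIs per 1000000 UMIs) were set aside as the AVE group. The remaining cells were split into Lhx1-positive cells and 249 Lhx1-negative cells with no Lhx1 UMI. The 14 genes of these steps are given as a description, and every other gene was read from the same cells, so that no difference below is a test.

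The Lhx1-positive, Lhx1-negative and AVE group cells came from 1 library of about 200 hand-picked BELAs. BELAs were grown from the GATA4-inducible mouse embryonic stem cell (ESC) clone C6 of the E14tg2a strain, in which doxycycline (0.5 µg/ml for 8 h in 2i and LIF) switched on GATA4, an inducer of primitive endoderm fate. After 16 h in N2B27 the resulting mixture of epiblast and primitive endoderm cells was seeded at 30000 cells per cm2. Floating aggregates were taken after 3 days. VE cysts served as endoderm without an epiblast layer. They were grown from the same clone with doxycycline kept for the additional 16 h, and with FGF4 (10 ng/ml) and heparin (1 µg/ml) until collection after 3 days. All groups share the inducible GATA4 construct and a single parental clone, and each type of structure was sequenced as 1 library, so there was no replicate and no difference between libraries could be checked.

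In the mouse egg cylinder the VE surrounds the epiblast and the extraembryonic ectoderm. VE over the epiblast can form the AVE, which secretes antagonists of Nodal and Wnt, while VE over the extraembryonic ectoderm is a tall absorptive epithelium that makes apolipoproteins and serum transport proteins, as the later yolk sac endoderm does. Lhx1 encodes a LIM homeodomain transcription factor with a known role in the AVE. Eomes encodes a T-box factor that acts in the same tissue, Nodal a TGF-β family ligand required for AVE formation, and Fgf5 an FGF ligand best known from the epiblast. Parietal endoderm, the other endoderm of this stage, secretes a thick basement membrane of laminin and collagen IV. The study asked how far epiblast cells change the endoderm beside them.

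By the median, Lhx1-positive cells held more UMIs per cell, here called depth, than the other groups. Their median depth was 104820 UMIs and 8116 genes per cell, against 81885 UMIs and 7476 genes in Lhx1-negative cells, and 86641 UMIs in the AVE group. A deeper cell has a higher chance of showing an Lhx1 UMI, so each main difference is also given at equal depth. The median mitochondrial share was 4.69% in Lhx1-positive cells and 4.52% in Lhx1-negative cells. The summed counts of the groups, 24517928 and 22258344 UMIs, put the level that a count of 0 allows at 0.122 and 0.135 CPM. No cell barcode was shared between kept cells of the 3 libraries. Scrublet called 28 of 1410 BELA cells doublets, 8 of them among Lhx1-positive and 12 among Lhx1-negative cells, and they were retained. Levels are given with exact 95% Poisson intervals and shares of cells with exact Clopper-Pearson intervals, which cover counting error only.

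Lhx1 itself was unevenly spread among the cells that held it. 66 cells had 1 Lhx1 UMI, 85 had 2 to 4 and 64 had 5 or more, with a median of 3 and a highest count of 46. In CPM per cell, the quartiles were 13.6, 27.7 and 55.8 and the highest value was 329. Summed over cells, Lhx1 stood at 41.4 CPM (38.9 to 44.0) in Lhx1-positive cells, against 229.9 CPM in the AVE group, 0.749 CPM in embryonic BELA cells and 0.845 CPM in the VE cells of VE cysts. Of the 577 VE cells of VE cysts under the same limit, 20 had an Lhx1 UMI (3.47%, 2.13 to 5.30%), and so did 3.92% of the embryonic BELA cells. Among BELA endoderm below the limit the share was 46.3% (41.7 to 51.0%). Median depth was 56914 UMIs in the VE cells of VE cysts and 78973 UMIs in the embryonic cells, below that of Lhx1-positive cells. After thinning every cell to 40000 UMIs, 68.1% of the 207 Lhx1-positive cells deep enough still showed an Lhx1 UMI. These cells were chosen for an Lhx1 UMI, so this share cannot be compared with that of cells not split by Lhx1. For all BELA endoderm below the limit, the thinned cells with an Lhx1 UMI were 141 of 207 Lhx1-positive cells and, by definition, 0 of 233 Lhx1-negative cells. Among cells not split by Lhx1, 20 of 801 embryonic cells (2.497%) and 8 of 473 VE cells of VE cysts (1.69%) showed one.

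To read levels in other molecules than those that split the cells, each UMI was placed at random, with equal chance, in set A or set B. The 172 cells with an Lhx1 UMI in set A had 45.3 CPM of Lhx1 (41.2 to 49.6) in set B, against 4.41 CPM (3.36 to 5.69) in the 292 cells without one, a 10.3-fold difference (7.82 to 13.7). The limit of 500 CPM had still used the Lhx1 UMIs of both sets, so the Lhx1 values are a description. The same split gave 59.2 against 18.4 CPM for Fgf5, 22.4 against 8.37 CPM for Nodal and 19.8 against 10.3 CPM for Eomes, with cells positive in set A first.

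The limit of 500 CPM cut a continuous range. The Lhx1-positive cells just inside it had sums of 496, 463 and 434 CPM over the 6 genes, and the AVE group cells just outside it 501, 513 and 514 CPM. Only 11 Lhx1-positive cells reached 300 CPM. The median sum was 53.4 CPM in Lhx1-positive cells, against 1535 CPM in the AVE group and 6.03 CPM in Lhx1-negative cells.

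Fgf5, Nodal and Eomes, the other genes by which these cells were proposed, all stood higher in Lhx1-positive than in Lhx1-negative cells and lower than in the AVE group. Fgf5 had 53.7 CPM (50.9 to 56.7) in Lhx1-positive cells, against 12.4 CPM (10.98 to 13.95) in Lhx1-negative cells, a ratio of 4.33 (3.80 to 4.95). It was present in most Lhx1-positive cells, with a median of 33.7 CPM and an upper quartile of 82.7 CPM per cell, whereas the median Lhx1-negative cell had none. Nodal had 21.4 CPM (19.6 to 23.3) in Lhx1-positive cells and 7.23 CPM (6.16 to 8.44) in Lhx1-negative cells, a ratio of 2.95 (2.47 to 3.55). Eomes had 19.7 CPM (18.0 to 21.6) in Lhx1-positive cells and 9.52 CPM (8.29 to 10.9) in Lhx1-negative cells, a ratio of 2.07 (1.76 to 2.45). The AVE group held 191 CPM of Fgf5, 66.3 CPM of Nodal and 139 CPM of Eomes. In VE cells of VE cysts, the levels were 1.04 CPM for Fgf5, 1.16 CPM for Nodal and 6.40 CPM for Eomes. Lhx1-positive cells stood 51.5-fold (37.2 to 73.5), 18.5-fold (13.4 to 26.1) and 3.09-fold (2.63 to 3.63) above this endoderm grown alone. Lhx1-negative cells, at 12.4, 7.23 and 9.52 CPM, stood above it as well, so the gap was not particular to Lhx1-positive cells. The cysts were another library grown with FGF4 and heparin, and the part of embryonic RNA was not tested.

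In the mm10 (GRCm38) annotation, Lhx1 lies on chromosome 11 from 84518284 to 84525535 on the minus strand, Fgf5 on chromosome 5 from 98254184 to 98277030, Nodal on chromosome 10 from 61417972 to 61425338 and Eomes on chromosome 9 from 118478212 to 118486132, the last 3 on the plus strand. The library chemistry captured transcripts by their 3′ ends.

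**Figure D1:**
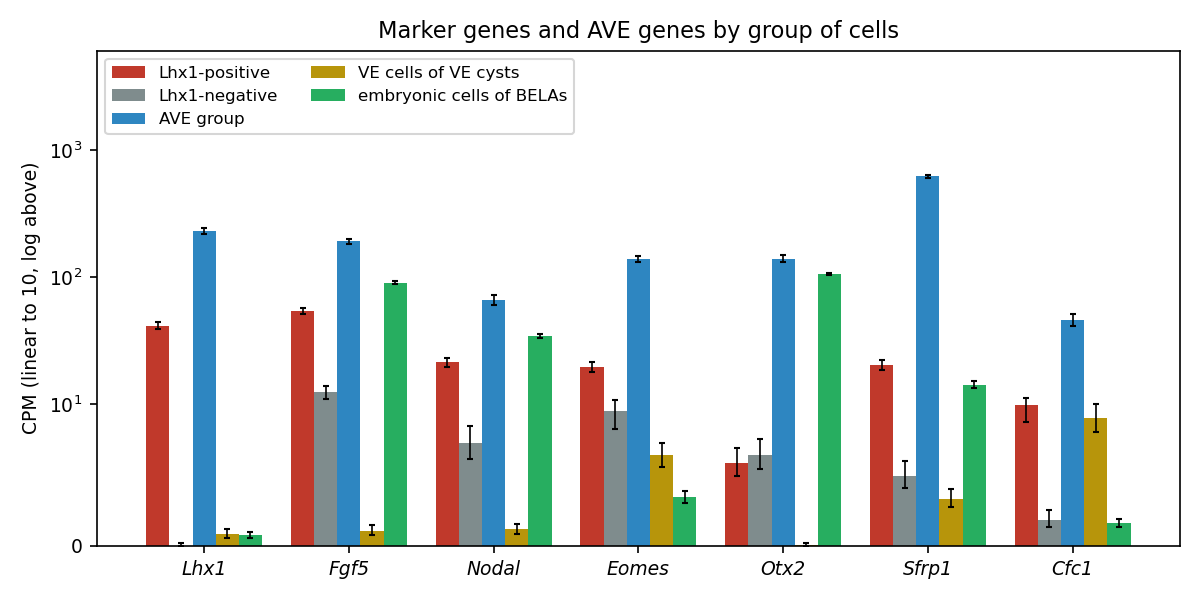
Levels of the marker genes and of selected AVE genes in CPM (linear to 10 and logarithmic above), from UMIs summed over the cells of each group, with exact 95% Poisson intervals. Fgf5, Nodal and Eomes stood at 53.7, 21.4 and 19.7 CPM in Lhx1-positive cells, between the Lhx1-negative cells and the AVE group. Otx2, a gene of the limit and so bounded by the selection, was at 5.87 CPM in Lhx1-positive and 6.42 CPM in Lhx1-negative cells.

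At 40000 UMIs per cell, 62.3% of Lhx1-positive cells (55.3 to 68.9%) had an Fgf5 UMI, against 18.0% of Lhx1-negative cells (13.3 to 23.6%). The unthinned shares were 73.0% and 24.1%. For Nodal the thinned shares were 42.5% of Lhx1-positive and 18.9% of Lhx1-negative cells (60.5% and 29.7% unthinned), and for Eomes 46.4% and 27.5% (71.6% and 42.2% unthinned). In VE cells of VE cysts 1.27% of thinned cells had an Fgf5 UMI, 4.23% a Nodal UMI and 21.6% an Eomes UMI. In embryonic cells the thinned shares were 85.8% for Fgf5, 60.2% for Nodal and 9.49% for Eomes. All 3 markers were found together in 30 of 207 thinned Lhx1-positive cells (14.5%, 10.0 to 20.0%), in 62 of 74 AVE group cells (83.8%) and in 5 of 233 Lhx1-negative cells (2.15%, 0.700 to 4.94%). None of the 3 was found in 15.9% of Lhx1-positive cells and in 54.9% of Lhx1-negative cells. In the AVE group this was so for 0 of 74 cells, which allows a share of up to 4.05%.

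Fgf5 and Nodal are also expressed by the embryonic cells, at 90.1 and 34.4 CPM, so the other genes of those cells are given beside them. Pou5f1, a pluripotency factor at 480.1 CPM in embryonic cells and one of the genes of the selection, was at 23.8 CPM in Lhx1-positive cells and 53.6 CPM in Lhx1-negative cells. As a share of the embryonic level, Lhx1-positive cells held 59.6% for Fgf5 and 62.2% for Nodal. The shares were 4.81% for the Nodal co-receptor gene Tdgf1 and 6.01% for the POU factor gene Pou3f1. They were 4.96% for Pou5f1 and 5.54% for Otx2, both bounded by the selection. Lhx1-negative cells held 13.8% for Fgf5, 21.0% for Nodal, 11.2% for Pou5f1 and 6.23% for Tdgf1. A wider list of 20 embryonic genes was less far apart. It summed to 2619 CPM in Lhx1-positive, 2936 CPM in Lhx1-negative and 4427 CPM in embryonic cells. In the AVE group the list summed to 2166 CPM and in VE cells of VE cysts to 1768 CPM. The 4 epiblast markers of the selection summed to between 0 and 503 CPM per cell in Lhx1-positive cells (median 7.08) and to between 0 and 550.5 CPM in Lhx1-negative cells (median 11.5), and none of the 4 was at 0 in either group. With VE marker UMIs required to be at least 10 times the epiblast marker UMIs, the Fgf5 difference was larger, at 2.22 instead of 1.75 on the log2 scale with 5 CPM added.

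Differences persisted within equal depth. The Lhx1-positive and Lhx1-negative cells were divided together into 5 depth classes of equal size by UMIs per cell, which held 23, 35, 44, 55 and 58 Lhx1-positive cells from shallow to deep. From the shallowest to the deepest class, Fgf5 stood at 71.6, 46.3, 45.8, 58.1 and 54.0 CPM in Lhx1-positive cells, against 4.81, 10.9, 12.1, 8.24 and 21.1 CPM in Lhx1-negative cells. The ratio of Nodal ranged over the classes from 1.59 to 7.41 and that of Eomes from 1.88 to 2.27. Lhx1-positive cells were the higher group in all 5 classes for Fgf5, Nodal, Eomes, Hnf4a, Apoa1 and Apob, and the lower one in all 5 for Lama1, Col4a1, Fst and Anxa2. For Eomes, the interval in the shallowest class included 1 (0.963 to 3.55). In the deepest class, Pou5f1 was at 31.1 CPM in Lhx1-positive and 122 CPM in Lhx1-negative cells, and there the ratios of Fgf5 (2.56) and Nodal (1.59) were at their lowest. Without that class, the log2 difference of Fgf5 was 2.03 and that of Nodal 1.39. The part of embryonic RNA in the levels was not tested.

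**Figure D2:**
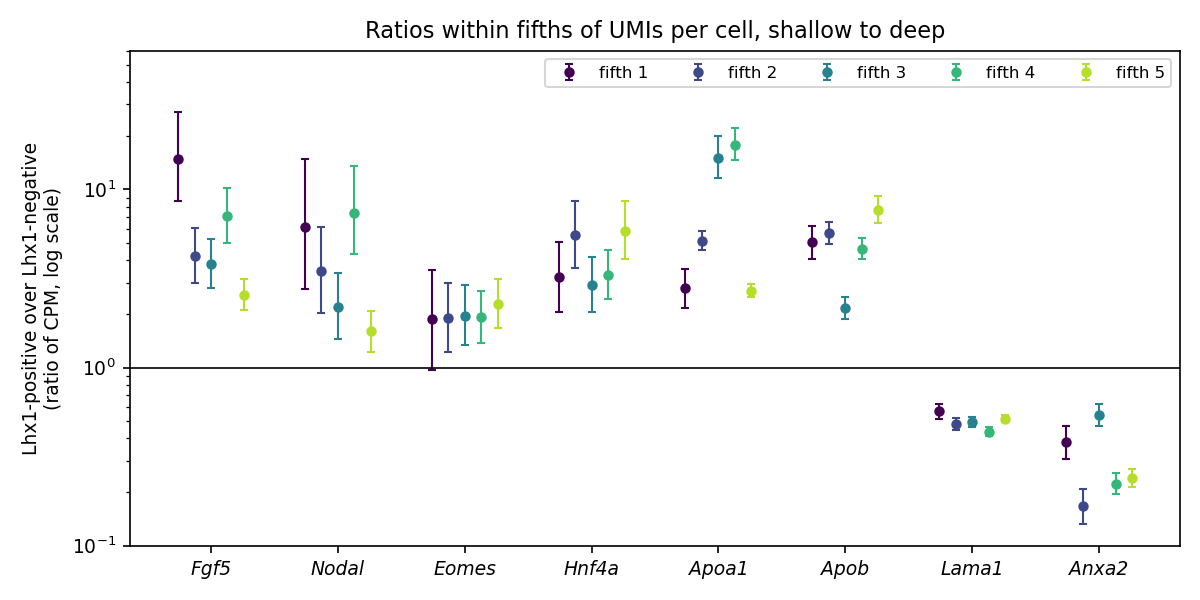
Ratio of CPM in Lhx1-positive over Lhx1-negative cells (log axis) for 8 genes within each of 5 depth classes, with exact 95% intervals for counting error. All points of Fgf5, Nodal, Eomes, Hnf4a, Apoa1 and Apob lie above 1, and all points of Lama1 (0.437 to 0.567) and Anxa2 (0.166 to 0.542) lie below 1.

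Across the transcriptome, 9281 genes outside the selection reached 5 CPM in either group. With 5 CPM added to each level, 276 genes stood at least 1.5-fold higher in Lhx1-positive cells (2.97% of the genes) and 221 at least 1.5-fold lower (2.38%). At 2-fold the counts were 80 (0.862%) and 55 (0.593%). The median log2 ratio over all these genes was -0.01. On this scale, the 12 genes of at least 10 CPM with the highest ratio were Car7, Apoa1, Apob, Spp2, Slc34a3, Slc2a2, Irs4, Has2, Apoc2, Fgf5, Apoa4 and Hsd17b2. The 12 with the lowest were Fst, Anxa2, Timp2, Ccnd2, Hs3st1, Cryab, Myl3, Tmsb4x, Glipr2, Nefl, Prss35 and Trh.

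**Figure D3:**
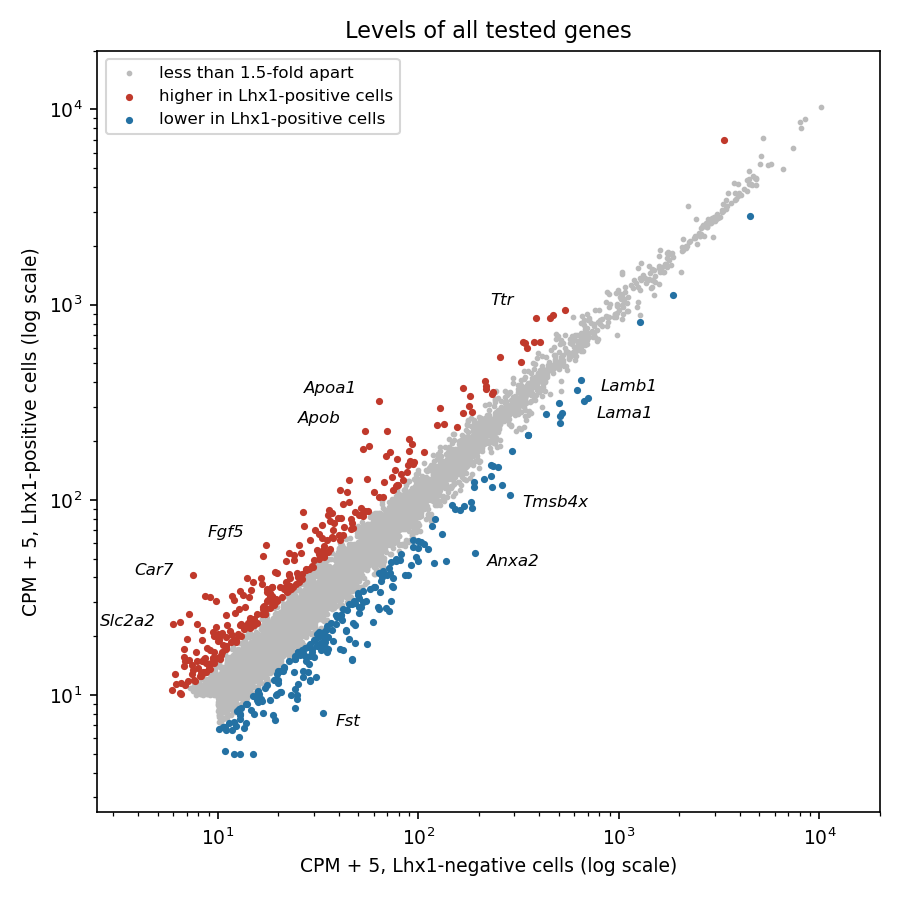
Level of each tested gene in Lhx1-positive cells against that in Lhx1-negative cells, both as CPM with 5 added and on log axes. Red points are the 276 genes at least 1.5-fold higher and blue points the 221 genes at least 1.5-fold lower in Lhx1-positive cells, grey points lie between, and the genes of the selection are left out.

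The largest group difference was in genes of absorptive VE and yolk sac endoderm. Of 19 listed genes, 17 reached 5 CPM, and 11 of these stood at least 1.5-fold higher in Lhx1-positive cells, whereas none was lower, against 2.97% and 2.38% of all genes. The median log2 ratio of the 19 genes was 1.16, beside -0.01 over all genes. Apoa1, the main protein of high-density lipoprotein, had 315 CPM (308 to 322) in Lhx1-positive cells and 58.7 CPM (55.5 to 61.9) in Lhx1-negative cells, a ratio of 5.37 (5.06 to 5.70). Apob, the structural protein of chylomicrons and very-low-density lipoprotein, had 219 CPM in Lhx1-positive and 48.9 CPM in Lhx1-negative cells, a ratio of 4.48 (4.19 to 4.78). VE cells of VE cysts held 55.9 CPM of Apoa1 and 66.2 CPM of Apob. Apoa4 and Apoc2, exchangeable lipoprotein components, stood 3.54-fold (3.32 to 3.78) and 3.70-fold (3.46 to 3.96) higher. Apoa2, Apom, Ttr, Trf and Afp, which encode 2 further apolipoproteins and the serum carriers transthyretin, transferrin and alpha-fetoprotein, stood between 2.24-fold and 5.97-fold higher. Afp remained low, at 10.7 CPM in Lhx1-positive and 1.80 CPM in Lhx1-negative cells. Apoe, a lipoprotein gene of broad expression, differed little, with 5239 CPM in Lhx1-positive and 5069 CPM in Lhx1-negative cells.

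Hnf4a, a nuclear receptor that controls lipoprotein genes in liver and VE, had 34.6 CPM (32.3 to 37.0) in Lhx1-positive cells and 8.99 CPM (7.78 to 10.3) in Lhx1-negative cells, a ratio of 3.85 (3.30 to 4.52). It was spread over most cells, with quartiles of 13.7, 30.3 and 48.4 CPM per Lhx1-positive cell. Thinned to 40000 UMIs, 69.1% of Lhx1-positive cells (62.3 to 75.3%) and 29.6% of Lhx1-negative cells had an Hnf4a UMI. The shares were 79.7% in the AVE group, 42.1% in VE cells of VE cysts and 0.999% in embryonic cells. Slc2a2, the glucose transporter GLUT2, had 18.6 CPM in Lhx1-positive and 1.44 CPM in Lhx1-negative cells, 12.9-fold (9.01 to 19.1) apart. It had 3.10 CPM in the AVE group and 9.33 CPM in VE cells of VE cysts. The other genes with the highest ratios encode membrane and metabolic proteins. Car7, a carbonic anhydrase, had 36.1 CPM in Lhx1-positive and 2.47 CPM in Lhx1-negative cells. The secreted phosphoprotein gene Spp2 had 18.0 against 0.943 CPM, the phosphate transporter gene Slc34a3 27.2 against 3.59 CPM, the hyaluronan synthase gene Has2 26.8 against 4.18 CPM and the steroid dehydrogenase gene Hsd17b2 82.0 against 21.5 CPM, Lhx1-positive cells first. These genes were also present in the AVE group, at 28.4 CPM for Car7, 38.2 for Spp2, 21.6 for Slc34a3, 23.4 for Has2 and 106 for Hsd17b2. In VE cells of VE cysts they lay between 0.986 CPM for Has2 and 6.03 CPM for Hsd17b2.

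Apoa1 was unevenly spread among the Lhx1-positive cells. Apoa1 had quartiles of 0, 27.4 and 257 CPM and a highest value of 4492 CPM per Lhx1-positive cell, and quartiles of 0, 0 and 13.9 CPM and a highest value of 2719 CPM per Lhx1-negative cell. Apob was more even, with quartiles of 23.3, 116 and 295 CPM in Lhx1-positive cells and 0, 7.25 and 48.1 CPM in Lhx1-negative cells. At 40000 UMIs, 56.5% of Lhx1-positive and 24.5% of Lhx1-negative cells had an Apoa1 UMI and 78.7% and 39.1% an Apob UMI. Embryonic cells gave shares of 11.5% for Apoa1 and 4.62% for Apob, and VE cells of VE cysts 21.6% and 23.5%. In the AVE group the shares were 89.2% and 97.3%. The ranges of single cells overlapped widely between the groups for both genes.

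**Figure D4:**
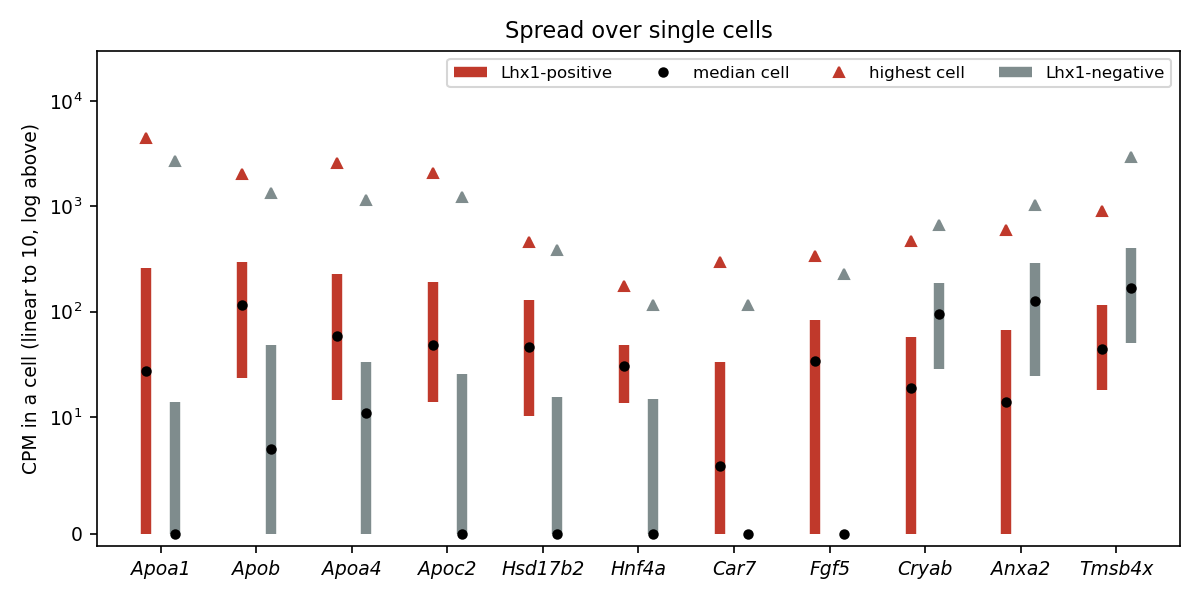
CPM per cell (linear to 10 and logarithmic above) in Lhx1-positive and Lhx1-negative cells. Bars span the lower to the upper quartile of cells, dots mark the median cell and triangles the highest cell. Apoa1 had a median of 27.4 CPM in Lhx1-positive cells and reached 4492 CPM in a single cell, while Cryab and Anxa2 had the higher medians in Lhx1-negative cells.

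Apolipoprotein genes and Hnf4a stood higher together, and after their values were seen the 300 bases around their annotated starts (250 before and 50 after) were searched for letters known to be bound by factors of this lineage. The windows were taken from RefSeq on GRCm38.p6 for 9 of the listed genes, in 11 windows. Both strands were searched for CAAAGTNCA, the core of HNF4 sites, and for TAATTA, a core that many homeodomain proteins including LIM factors bind. Over all 32851 windows of the table these letters occurred in 1.41% and 5.29%. They were found in 1 and 2 of the 11 windows, and the 3 windows with a match are shown, with matches in capitals. The window of Apoa4 (chr9:46240594-46240893, plus strand) held the HNF4 core from base -182 to -174 relative to the start. The downstream start of Hnf4a (chr2:163546905-163547204, plus strand) held a homeodomain core from base -165 to -160. The window of Afp (chr5:90490464-90490763, plus strand) held one from base -103 to -98. A match describes letters only, and the counting of 3′ ends does not say which start of Hnf4a was in use.
Apoa4: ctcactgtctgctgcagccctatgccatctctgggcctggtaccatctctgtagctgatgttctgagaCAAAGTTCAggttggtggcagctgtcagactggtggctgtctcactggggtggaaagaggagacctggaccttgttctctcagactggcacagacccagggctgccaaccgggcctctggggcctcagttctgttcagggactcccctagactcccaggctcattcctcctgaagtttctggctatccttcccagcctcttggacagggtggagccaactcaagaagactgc
Hnf4a: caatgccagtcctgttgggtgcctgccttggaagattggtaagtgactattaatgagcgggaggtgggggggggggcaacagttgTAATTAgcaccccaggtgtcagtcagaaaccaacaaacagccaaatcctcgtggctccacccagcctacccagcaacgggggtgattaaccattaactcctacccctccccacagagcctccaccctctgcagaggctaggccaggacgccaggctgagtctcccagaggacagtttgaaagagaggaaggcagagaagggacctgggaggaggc
Afp: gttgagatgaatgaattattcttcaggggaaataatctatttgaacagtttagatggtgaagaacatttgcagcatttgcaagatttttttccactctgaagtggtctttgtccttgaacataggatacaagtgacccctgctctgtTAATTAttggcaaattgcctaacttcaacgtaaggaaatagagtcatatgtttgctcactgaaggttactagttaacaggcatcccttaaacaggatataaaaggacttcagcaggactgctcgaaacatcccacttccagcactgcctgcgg

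Genes of endocytosis and other functions of the VE also stood higher, by a smaller factor. Of the 8 listed genes that reached 5 CPM outside the selection, 4 stood at least 1.5-fold higher and none lower, against 2.97% and 2.38% of all genes. Lrp2, the megalin receptor, had 592 CPM in Lhx1-positive and 341 CPM in Lhx1-negative cells, and Soat2, which esterifies cholesterol, 169.8 and 67.6 CPM. The chloride channel gene Clic6 and the threonine dehydrogenase gene Tdh stood 1.87-fold and 1.53-fold higher. Amn, the partner of cubilin, was at 1458 CPM in Lhx1-positive and 1026 CPM in Lhx1-negative cells, short of 1.5-fold. Of the 4 VE markers that selected the cells, Dab2 (2052 CPM in Lhx1-positive and 1389 CPM in Lhx1-negative cells) and Cubn (1075 and 659.7 CPM) were higher, whereas Gata6 (207 and 291 CPM) and Sox17 (111 and 164 CPM) were lower. Among genes of adhesion and epithelia, Ezr, Cldn7 and Podxl, of the apical cortex, the tight junction and the apical surface, stood higher by 1.89-fold, 1.71-fold and 1.53-fold. Krt19, a keratin, was lower, with 83.9 CPM in Lhx1-positive and 157 CPM in Lhx1-negative cells.

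Genes of the basement membrane and of parietal endoderm stood lower. Of 18 listed genes at 5 CPM or more, 9 were at least 1.5-fold lower in Lhx1-positive cells and none was higher, against 2.38% and 2.97% of all genes. The median log2 ratio of the list was -0.53, beside -0.01 over all genes. Lama1, Lamb1 and Lamc1, the 3 chains of laminin-111, differed by almost the same factor. Lama1 had 316 CPM (309 to 323) in Lhx1-positive and 663 CPM (652 to 674) in Lhx1-negative cells, and the Lhx1-negative level was 2.10-fold (2.04 to 2.16) that of Lhx1-positive cells. The corresponding factors were 2.12 for Lamb1 and 2.08 for Lamc1, and 2.57 for Nid1, which links laminin to collagen IV. Vim, Plat, Pth1r, P4ha2 and Fst were the other lower genes, with factors between 1.65 and 9.30. Col4a1 and Sparc, abundant products of parietal endoderm, differed by less than 1.5-fold, with 1463 CPM of Col4a1 in Lhx1-positive and 2025 CPM in Lhx1-negative cells, and 4954 and 6571 CPM of Sparc. In VE cells of VE cysts Lama1 was at 966 CPM and Sparc at 12104 CPM.

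With 5 CPM added, the gene with the lowest ratio was Fst, which encodes follistatin, a secreted inhibitor of activins. It had 3.06 CPM (2.41 to 3.83) in Lhx1-positive cells and 28.4 CPM (26.3 to 30.7) in Lhx1-negative cells. No Fst UMI was found in the AVE group, which allows up to 0.388 CPM. Most cells lacked it in both groups, since 5.80% of thinned Lhx1-positive and 20.6% of thinned Lhx1-negative cells had an Fst UMI, and 20.7% of embryonic cells did. Anxa2, a membrane-binding annexin, was more widespread, with 48.2 CPM in Lhx1-positive and 186 CPM in Lhx1-negative cells and cell medians of 13.95 and 127 CPM. Tmsb4x, which binds actin monomers, had 101 and 282 CPM, and the small heat shock protein gene Cryab 43.5 and 132 CPM, in Lhx1-positive and Lhx1-negative cells. Timp2, an inhibitor of metalloproteases, Ccnd2, a D-type cyclin, and Hs3st1, a heparan sulfate sulfotransferase, were between 3.79-fold and 4.15-fold higher in Lhx1-negative cells. Trh, a peptide hormone gene at 93.8 CPM in embryonic cells, had 2.45 CPM in Lhx1-positive and 14.4 CPM in Lhx1-negative cells.

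Of 13 genes for ligands, receptors and processing of Nodal signaling at 5 CPM or more, Nodal and Cfc1 stood 1.5-fold higher and none lower, against 2.97% and 2.38% of all genes, and the median log2 ratio of the 20 listed genes was -0.01. Cfc1, which encodes the Nodal co-receptor Cryptic, had 9.95 CPM (8.74 to 11.3) in Lhx1-positive cells, 46.1 CPM in the AVE group and 1.84 CPM (1.32 to 2.499) in Lhx1-negative cells, beside 9.02 CPM in VE cells of VE cysts. Smad2, Smad4, Smad7 and Skil, signal transducers and a target on the list, had log2 ratios between -0.07 and 0.15. The receptor gene Acvr2b was at 12.8 CPM in Lhx1-positive and 17.0 CPM in Lhx1-negative cells.

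The secreted antagonists of the AVE differed among themselves. Of 4 listed genes at 5 CPM or more, Sfrp5 stood 1.5-fold higher and Frzb and Fst lower, against 2.97% and 2.38% of all genes. Lefty1, an inhibitor of Nodal, had 4.04 CPM (3.28 to 4.92) in Lhx1-positive cells, 38.9 CPM in the AVE group and 4.18 CPM (3.37 to 5.12) in Lhx1-negative cells. Cer1, another inhibitor of Nodal, was at 9.95 CPM in the AVE group and at 0.0408 CPM in Lhx1-positive and 0.0449 CPM in Lhx1-negative cells, each a single UMI. Dkk1, a Wnt antagonist, was at 42.8 CPM in Lhx1-positive and 41.6 CPM in Lhx1-negative cells. Sfrp5 stood 3.11-fold higher (2.51 to 3.88), with 15.5 CPM in Lhx1-positive cells, 81.8 CPM in the AVE group and 4.99 CPM in Lhx1-negative cells. Frzb was lower, with 2.20 and 8.85 CPM in Lhx1-positive and Lhx1-negative cells. VE cells of VE cysts held more Sfrp5 (84.9 CPM) and Frzb (33.8 CPM) than either of these groups. They held less Dkk1 (26.6 CPM) and Lefty1 (2.11 CPM).

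The AVE genes of the limit differed among themselves. Otx2, a homeodomain factor of the AVE, had 5.87 CPM (4.95 to 6.91) in Lhx1-positive cells, 139.6 CPM in the AVE group and 6.42 CPM (5.41 to 7.57) in Lhx1-negative cells. Gsc, another homeodomain factor, had 0.408 CPM in Lhx1-positive cells and 48.6 CPM in the AVE group. Sfrp1 and Fgf8 were at 20.5 and 5.51 CPM in Lhx1-positive cells, 621 and 139 CPM in the AVE group and 4.94 and 0.404 CPM in Lhx1-negative cells. All 6 genes were bounded by the selection in both groups below the limit. Of the other transcription factor genes of embryonic VE and AVE, Eomes alone passed 1.5-fold among 5 tested. Over all genes, 2.97% stood higher and 2.38% lower. Hhex was at 20.8 and 14.4 CPM and Foxa2 at 49.6 and 41.9 CPM in Lhx1-positive and Lhx1-negative cells. The LIM domain cofactors Ldb1 and Ssbp3, which bind Lhx1, had log2 ratios of 0.20 and -0.03. None of 5 such genes passed 1.5-fold, a count near the shares over all genes.

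A list of 15 further genes was chosen by the study from its AVE cluster in these same samples, and so is no independent evidence of a direction. Of its 13 genes at 5 CPM or more, 8 stood at least 1.5-fold higher in Lhx1-positive cells and none lower, against 2.97% and 2.38% of all genes. Among these 8, Apoa1 and Afp were already counted in the yolk sac list. Irs4, an adaptor of insulin signaling, had 20.9 CPM (19.2 to 22.8) in Lhx1-positive cells, 159.5 CPM in the AVE group and 2.16 CPM (1.59 to 2.86) in Lhx1-negative cells. Ptgds, a prostaglandin synthase gene, had 164 CPM in Lhx1-positive and 63.9 CPM in Lhx1-negative cells. Igfbp2, Mest and Crip1 of the same list had log2 ratios between -0.14 and -0.05.

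Set against the AVE group, Lhx1-positive cells lay on the other side of most of these genes. Of 9535 genes tested in this comparison, 404 (4.24%) were at least 1.5-fold higher and 621 (6.51%) at least 1.5-fold lower in Lhx1-positive cells. Fgf5, Nodal, Eomes, Cer1, Lefty1, Dkk1 and Sfrp5 were lower, as were all 15 further genes of the study's AVE cluster. The study chose those 15 for high levels in that cluster of these same samples, and named Eomes, Cer1 and Lefty1 there too. Their direction was thus set largely by the choice and is no evidence. Of 17 parietal endoderm and matrix genes, 11 were higher and none lower, among them Lama1 (316 CPM in Lhx1-positive cells, 61.0 CPM in the AVE group) and Col4a1 (1463 and 661 CPM). The yolk sac list was split, with Slc2a2 and Dpp4 higher and Apoa1, Rbp4, Afp, Trf and Fgb lower. Apoa4, Apoc2 and Hnf4a differed from the AVE group by less than 1.5-fold, with 184 and 192 CPM of Apoa4, 177 and 144 CPM of Apoc2 and 34.6 and 39.7 CPM of Hnf4a in Lhx1-positive and AVE group cells.

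Among cells thinned to 40000 UMIs, the levels of several genes followed the number of Lhx1 UMIs. The 440 cells below the limit fell into 299 with no Lhx1 UMI left, among them all 233 Lhx1-negative cells, 71 with 1, 59 with 2 to 4 and 11 with 5 or more. In this order, Fgf5 stood at 17.6, 42.3, 63.6 and 125 CPM, Nodal at 8.11, 18.0, 24.6 and 47.7 CPM and Eomes at 11.3, 16.9, 21.2 and 45.5 CPM. Apoa1 stood at 61.0, 272, 442 and 920.5 CPM, above the 718 CPM of the AVE group in the last class. Hnf4a stood at 15.6, 33.5 and 43.6 CPM in the first 3 classes. Lama1 stood at 608, 364, 253 and 143 CPM and Anxa2 at 169.6, 67.3, 13.98 and 0 CPM, where the last value allows up to 6.82 CPM. Other genes did not follow. Dkk1 stood at 47.9, 35.2, 47.0 and 13.6 CPM and Rbp4, a retinol carrier, at 62.5, 42.3, 147 and 81.8 CPM. Otx2 stood at 4.52, 4.93, 2.54 and 6.82 CPM, beside 152 CPM in the AVE group. The limit of 500 CPM summed Otx2 with Lhx1, so the selection bounded Otx2 in these classes and its values are a description. Cubn, a gene of the selection, stood at 737, 1022, 1128 and 1357 CPM in the 4 classes and at 355 CPM in the AVE group. The last class rests on 11 cells, but the levels of Fgf5, Nodal, Eomes, Apoa1, Hnf4a, Lama1, Anxa2 and Cubn had the same order over the first 3 classes alone. This is a description of cells from 1 library, and the classes differ in depth before thinning, with medians of 90845, 96670, 98977 and 119470 UMIs.

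**Figure D5:**
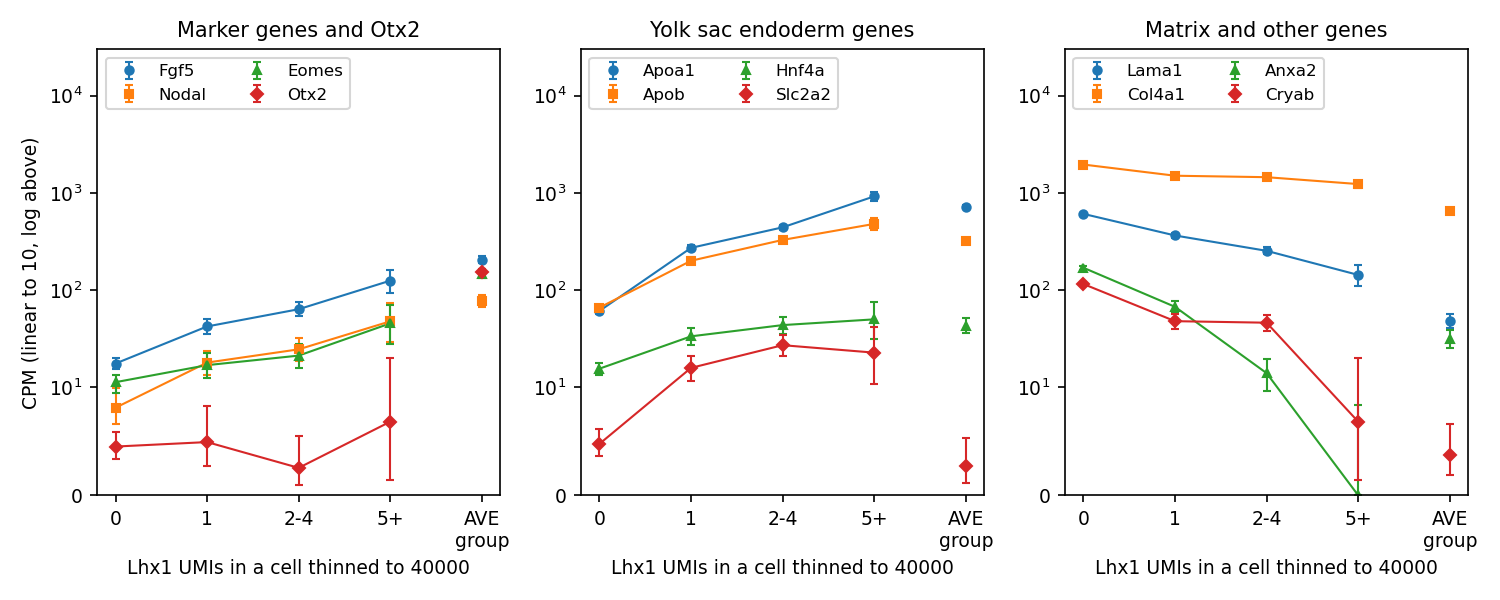
Levels in CPM (linear to 10 and logarithmic above) of cells below the limit by their number of Lhx1 UMIs after thinning to 40000 UMIs, with the AVE group apart on the right and exact 95% Poisson intervals. Fgf5 stood at 17.6 to 125 CPM from the first to the last class, Apoa1 at 61.0 to 920.5 CPM and Lama1 at 608 to 143 CPM. Otx2, a gene of the limit and so bounded by the selection, stayed at or below 6.82 CPM outside the AVE group.

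In the FGF and ERK pathway, ligands and targets went different ways. Fgf3, an FGF ligand, was lower in contrast to Fgf5, with 12.2 CPM (10.9 to 13.7) in Lhx1-positive and 35.5 CPM (33.1 to 38.1) in Lhx1-negative cells. Among 13 targets, the feedback inhibitor gene Spry1 stood 1.70-fold higher, against 2.97% of all genes. The early response genes Egr1, Fos and Ier3 were lower, against 2.38% of all genes. Egr1 had 22.8 and 64.0 CPM in Lhx1-positive and Lhx1-negative cells. The other 9 targets, with Etv4, Etv5, Dusp4 and Dusp6 among them, stayed within 1.5-fold. Jun and Fos, the latter already counted among the targets, were the 2 lower genes of 10 stress genes, against 2.38% of all genes. With 5 CPM added, none of 12 genes of BMP signaling passed 1.5-fold in either direction, which at 2.97% and 2.38% of all genes is near the background, with Id1 at 30.6 and 30.2 CPM and Bambi at 19.4 and 12.4 CPM in Lhx1-positive and Lhx1-negative cells. Of 3 beta-catenin targets at 5 CPM or more, Ccnd1 was lower, with 6.28 and 12.5 CPM, against 2.38% of all genes. None of 8 genes of cell movement passed 1.5-fold, likewise near the background.

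None of 10 G2/M genes and none of 10 S phase genes passed 1.5-fold, a count near the 2.97% higher and 2.38% lower over all genes. Their median log2 ratios were -0.27 and -0.19, and -0.48 and -0.20 when taken within depth classes. Top2a, a topoisomerase of dividing cells, had 230.2 CPM in Lhx1-positive and 330.3 CPM in Lhx1-negative cells. Of 10 glycolysis and hypoxia genes 2 were lower, against 2.38% of all genes. They were Slc2a1, the glucose transporter GLUT1, with 144 and 232 CPM, and Adm with 1.84 and 5.57 CPM, Lhx1-positive cells first.

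Markers of other cell types were checked in the same cells. Among 17 embryonic genes at 5 CPM or more, 2 stood higher in Lhx1-positive than in Lhx1-negative cells, Utf1 (298 and 173 CPM) among them. Pim2 (13.5 and 27.5 CPM) and Slc7a3 (3.997 and 8.99 CPM) stood lower. Over all genes, 2.97% were higher and 2.38% lower, and the list median was -0.08. The 20 embryonic genes summed to between 877 and 5169 CPM per Lhx1-positive cell (median 2533) and to between 812 and 6876 CPM per Lhx1-negative cell (median 2718). The kidney precursor, neural and blood genes, other lineages in which Lhx1 or VE genes can occur, summed to 19.0, 8.16 and 2.81 CPM in Lhx1-positive cells and to 23.8, 10.6 and 6.07 CPM in Lhx1-negative cells. The streak, mesoderm and definitive endoderm list, which holds Foxa2 and Pdgfra, summed to 126 CPM in Lhx1-positive, 141 CPM in Lhx1-negative and 11.2 CPM in embryonic cells. T, the defining gene of the primitive streak, had 1 UMI in each endoderm group below the limit. The trophoblast list summed to 374, 292 and 166 CPM in the same order. Of that list, Krt7 stood higher, with 10.4 CPM in Lhx1-positive cells, 64.2 CPM in the AVE group and 3.50 CPM in Lhx1-negative cells. The VE assignment held for Lhx1-positive cells by genes outside the selection, with Amn at 1458 CPM and Foxa2 at 49.6 CPM, against 12.5 and 0.971 CPM in embryonic cells.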

How the data were processed

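Libraries were made with 10x Genomics Chromium 3′ v3.1 chemistry. Per the labels and the submitters' processing notes, the authors used Cell Ranger 4.0.0 and mm10, and the deposited matrices hold raw UMI counts per gene and barcode for 32285 genes. The authors' stated filter on cells was applied. The cells, gene lists and comparisons were chosen with earlier results of these data known. UMIs were summed over the cells of a group and divided by all their UMIs (CPM). Ratios are of summed levels with exact 95% intervals for counting error. Genes count as higher or lower from 1.5-fold with 5 CPM added, among genes of at least 5 CPM in either group and outside the 14 genes of the selection. Named genes are the 4 markers, the 12 highest and 12 lowest ratios with 5 CPM added at 10 CPM or more, and from each of 28 lists the genes past 1.5-fold or otherwise the most abundant. With 1 library per condition no test was possible. Thinning drew 40000 UMIs per cell without replacement. Doublets were called with Scrublet (scanpy 1.11.5, expected share 1.6%). Python 3.11.15, numpy 2.4.6 and scipy 1.17.1 were used. Alternatives changed the cell filters, the limit, the number of Lhx1 UMIs, the added CPM, the fold and the depth. Values of some listed genes are not reported here.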

Additional observations from a re-analysis of the deposited data

How the results depend on the processing

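All changes of setting concern Lhx1-positive over Lhx1-negative cells of 1 library, 16 settings were tried, and none had a replicate. No paired analysis was possible because each type of structure was 1 library. The counts of genes past 1.5-fold moved by over 1.5 times only with the fold or the CPM added. There were 80 higher and 55 lower genes at 2-fold, 110 and 87 with 20 CPM added, and 380 lower genes with 1 CPM added, where the 395 higher genes stayed within 1.5 times. The log2 ratio of Fgf5 moved past counting error to 1.51 when members were chosen again after thinning to 40000 UMIs, 2.01 with at least 2 Lhx1 UMIs, 2.22 with VE markers at least 10 times the epiblast markers, 2.17 without the called doublets, 2.03 with 1 CPM added, 1.19 with 20 CPM added and 2.03 without the deepest of 5 depth classes, a setting chosen after seeing the data. That of Nodal moved to 1.30 with at least 2 Lhx1 UMIs, 1.44 with 1 CPM added, 0.60 with 20 CPM added and 1.39 without the deepest class, and that of Eomes to 0.98 with 1 CPM and 0.43 with 20 CPM added. The cause was not tested, other than that added CPM shrink ratios of low genes by construction. None of the 28 alternative values of the 2 list medians past 1.5-fold changed sign. The yolk sac list ranged from 0.81 to 1.36 and the further genes of the AVE cluster from 0.36 to 1.09. Cells of a library are not replicates, so intervals understate the variation between cultures, and levels under about 5 CPM rest on few UMIs per cell.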

Other observations

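Some genes outside the lists, chosen after their values were seen, also differed between the groups. Rspo3, a secreted enhancer of Wnt signaling, had 12.3 CPM (10.9 to 13.7) in Lhx1-positive cells, 17.1 CPM in the AVE group and 1.80 CPM (1.28 to 2.45) in Lhx1-negative cells. Muc13, an apical mucin, had 83.7 CPM in Lhx1-positive and 30.8 CPM in Lhx1-negative cells, and Amot, a junctional protein of the Hippo pathway, 291 and 124 CPM. Maf, a basic leucine zipper transcription factor, had 53.3 and 20.3 CPM, with a median of 45.9 CPM per Lhx1-positive cell and 12.9 CPM per Lhx1-negative cell. On the other side, Lifr, the receptor of LIF, had 14.4 CPM in Lhx1-positive and 40.3 CPM in Lhx1-negative cells, Flt1, a VEGF receptor, 23.4 and 57.6 CPM, and Klf4, a transcription factor downstream of LIF, 37.1 and 67.0 CPM. VE cells of VE cysts held 94.9 CPM of Lifr and 105 CPM of Klf4.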
